A study of Mus musculus with 12 samples.

Results

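MAX and MYC binding sites were compared in RAW264.7 cells given RANKL, with the MAX peaks that also carried a MYC peak set against MAX peaks of the same strength that did not. RAW264.7 is a mouse monocyte and macrophage line, and RANKL is a TNF-family cytokine that turns it into bone-resorbing osteoclasts. The RANKL list of MAX held 10889 peaks and the RANKL list of MYC held 299, each from 1 chromatin immunoprecipitation and sequencing (ChIP-seq) library of cells treated with 50 ng/ml RANKL for 4 h. A MAX peak counted as having MYC when at least 1 bp was shared, which held for 280 of the 10889 MAX peaks (2.57%) and left 10609 without MYC. From the side of MYC, 280 of 299 peaks (93.6%) lay on a MAX peak and 19 did not. The whole series holds 63578 peaks in 8 lists, for MYC and for MAX after RANKL, after the BET inhibitor I-BET at 500 nM, after both agents, and without treatment. All samples come from the same cell line, the labels name bone marrow as the source, and the 4 input libraries were not used here. With 1 list for each antibody and treatment there is no replicate check, so no p-value is given, and the exact 95% intervals cover counting error only.

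MYC and MAX are basic helix-loop-helix leucine zipper proteins. MYC binds DNA as a pair with MAX, most tightly at the E-box CACGTG, and is known for driving genes of ribosome production, translation, metabolism and growth. MAX also pairs with itself and with MXD, MNT and MGA proteins, which act mostly as repressors, so a MAX site need not be a MYC site. In macrophages, MYC is known to change during osteoclast formation, and BET proteins, the targets of I-BET, are known to help transcription of MYC and its targets.

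Each MAX peak was ranked by its score in the MAX list, the authors' own value per peak, with rank 1 the best. Every MAX peak with MYC was then paired with the unused MAX peak without MYC that was nearest in rank. The median rank was 459 for the 280 peaks with MYC, 458 for their 280 rank-matched partners and 5580 for all 10609 peaks without MYC. Ranks within a pair differed by a median of 1 and by at most 6 places.

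The stretches below show the E-box at gene starts of both kinds, since CACGTG was found both with and without MYC. They are RefSeq promoter sequence of the mouse assembly GRCm38.p6 (mm10), 5′ to 3′ on the strand of the gene, with 30 bases on either side of an E-box in lower case and every CACGTG in capitals. The first set belongs to MAX peaks with MYC. Pcbp1, at MAX rank 47, encodes an RNA-binding protein, and its E-box starts 217 bases before the transcription start. G6pc3, at rank 54, encodes a glucose-6-phosphatase of all tissues and has a pair of E-boxes, the first starting 99 bases before the start. Ldha, at rank 131, encodes lactate dehydrogenase A. Clns1a, at rank 290, encodes a chaperone of spliceosomal particle assembly, Eif4g1, at rank 412, the scaffold of the cap-binding complex, and Ptbp1, at rank 417, a splicing repressor.
Pcbp1 (chr6:86526371-86526436, minus strand): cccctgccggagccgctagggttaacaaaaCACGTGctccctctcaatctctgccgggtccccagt
G6pc3 (chr11:102189570-102189635, plus strand): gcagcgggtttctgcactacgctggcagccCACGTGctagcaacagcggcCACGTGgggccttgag
Ldha (chr7:46845629-46845694, plus strand): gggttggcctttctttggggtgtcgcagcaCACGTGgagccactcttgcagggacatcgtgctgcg
Clns1a (chr7:97696513-97696578, plus strand): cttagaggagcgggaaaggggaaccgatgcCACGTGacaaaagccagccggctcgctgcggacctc
Eif4g1 (chr16:20672643-20672708, plus strand): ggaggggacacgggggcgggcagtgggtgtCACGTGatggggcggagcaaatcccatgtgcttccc
Ptbp1 (chr10:79854357-79854422, plus strand): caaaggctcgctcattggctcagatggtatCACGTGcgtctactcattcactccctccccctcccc

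The second set belongs to gene starts matched on MAX rank that had a MAX peak and no MYC peak in RANKL-treated cells. Atp5l, at MAX rank 34, encodes a subunit of the mitochondrial ATP synthase, Nop2, at rank 286, an rRNA methyltransferase, and Serf2, at rank 331, a small protein that promotes amyloid aggregation. Eif5a, at rank 369, encodes the hypusine-bearing elongation factor, and its MAX peak had a MYC peak in untreated cells. Tef, at rank 383, encodes a clock-controlled transcription factor, and Paics, at rank 1205, an enzyme of purine synthesis.
Atp5l (chr9:44920854-44920919, minus strand): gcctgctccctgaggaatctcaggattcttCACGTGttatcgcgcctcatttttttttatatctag
Nop2 (chr6:125131793-125131858, plus strand): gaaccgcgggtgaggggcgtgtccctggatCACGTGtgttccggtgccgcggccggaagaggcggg
Serf2 (chr2:121449063-121449128, plus strand): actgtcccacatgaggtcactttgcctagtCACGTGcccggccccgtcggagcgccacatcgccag
Eif5a (chr11:69920773-69920838, minus strand): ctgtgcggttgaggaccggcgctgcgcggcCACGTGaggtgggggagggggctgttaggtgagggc
Tef (chr15:81811246-81811311, plus strand): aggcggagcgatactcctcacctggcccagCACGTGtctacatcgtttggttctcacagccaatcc
Paics (chr5:76951069-76951134, plus strand): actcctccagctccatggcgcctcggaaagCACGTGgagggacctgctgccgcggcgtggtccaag

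MYC was found mainly at strong MAX peaks, with a lower share among the first 25 than at ranks 26 to 200. When the MAX list was cut into 10 blocks of equal size, 213 of the 1089 best-scoring peaks had MYC (19.6%, 95% interval 17.2 to 22.0%), and 36 peaks of the next block (3.31%, 2.33 to 4.55%). The 3 blocks after that held 11, 10 and 5 such peaks, and the peaks beyond rank 5445 held 5 in all. Among the first 25 MAX peaks, 2 had MYC (8.0%, 0.984 to 26.0%), against 68 of the 175 peaks at ranks 26 to 200 (38.9%, 31.6 to 46.5%). The share was 14.0% at ranks 1 to 50, 38.0% at ranks 51 to 100, 46.0% at ranks 101 to 150, and then lower in each step down to 16.0% at ranks 451 to 500. These bounds were chosen after the values were seen, and neighbouring steps of 50 peaks have overlapping intervals.

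**Figure D1:**
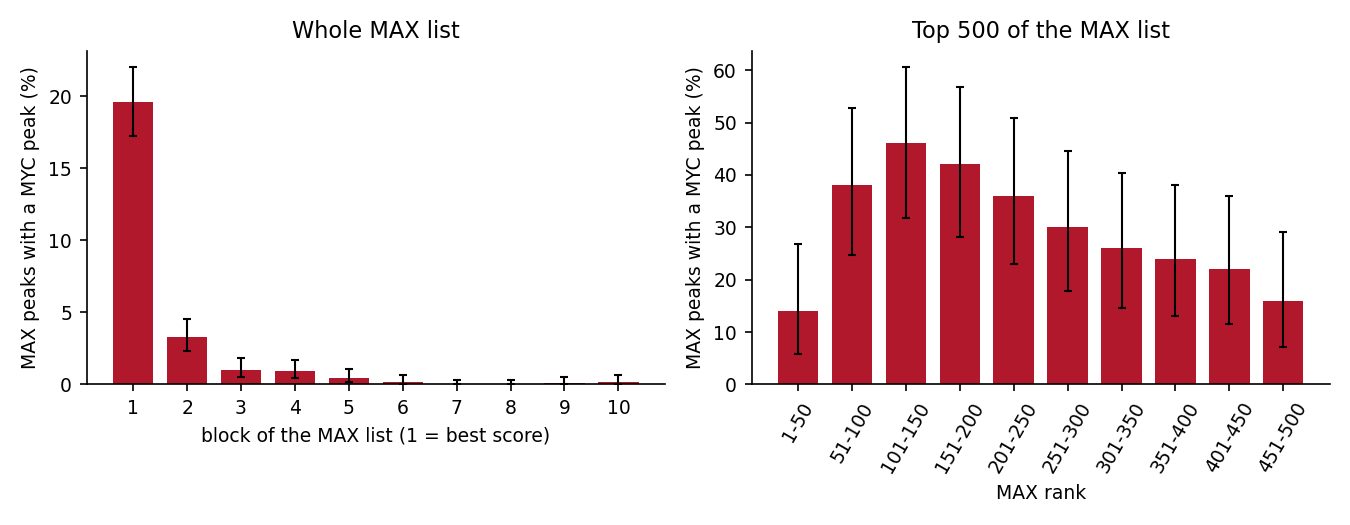
Share of MAX peaks that overlap a MYC peak in RANKL-treated cells (y axis, percent), by 10 blocks of the MAX list (left) and by steps of 50 ranks among the first 500 (right); bars are shares and lines exact 95% intervals. The first block stands at 19.6%, and within the first 500 ranks the share is 14.0% at ranks 1 to 50 and 46.0% at ranks 101 to 150.

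The strongest MAX peak of the list, at Nup85 (a nuclear pore subunit), had no MYC peak. Nor had those at Hspa9 (the mitochondrial HSP70, MAX rank 6), Eftud2 (a spliceosomal GTPase, rank 10), Farsb (phenylalanyl-tRNA synthetase, rank 12), Rps27a (rank 15) and Ndufa4 (rank 18). The best-ranked MAX peak with MYC was at rank 4, at chr13:69611420-69612364, where Nsun2, an RNA methyltransferase, and Srd5a1, a steroid reductase, start. The next at gene starts were Ube2q1 (a ubiquitin-conjugating enzyme, rank 35), Riok2 (a kinase of small-subunit maturation, rank 38), Pcbp1 (rank 47) and Pprc1 (a coactivator of mitochondrial genes, rank 51). They were followed by Rabggtb (52), G6pc3 (54), Cops7a (55), Cmc1 (56), Supv3l1 (58), Ears2 with Ubfd1 (62), 2700049A03Rik with Timm9 (64), Ran (71), Gtf2ird2 (77) and Adh5 (78). The 15 best of the matched peaks at gene starts without MYC lay at Slc35b1 (rank 3), Mapkapk5 (13), Atp5l (34), 2410002F23Rik (37), Cox7a2l (39), Cdc73 (42), Ufm1 (46), Pes1 (50), Smc2 (53), Caprin1 (57), Zranb2 (59), Polr2e (60), Psmd1 (61), Tm9sf1 (65) and Tsn (70).

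The order of MYC peaks followed the order of MAX peaks only loosely. Over the 280 MAX peaks with MYC, the ranks in both lists had a Spearman correlation of 0.262 and a Pearson correlation of 0.0294, given as a description because the peaks share their libraries. MYC rank 1, at chr5:142367509-142367904, had its centre 33791 bp from the nearest protein-coding gene start, that of Foxk1, on a MAX peak of rank 14. MYC rank 2 lay at the start of Snhg15, a non-coding host of a small nucleolar RNA (snoRNA), on a MAX peak of rank 441, and MYC rank 4 lay within Pemt on MAX rank 40. The 10 best MYC peaks at protein-coding gene starts were at Gm44064 (MYC rank 5), Prcc (7), Nop58 (9), Nol8 with Cenpp (10), Cox5a (11), Pprc1 (14), Mtg1 (15), Ctps (16), Rpl32 (17) and Uspl1 (18).

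The 5 MAX peaks with MYC beyond MAX rank 5445 included some of the best MYC peaks. The MAX peak at Prcc, a splicing-associated gene fused in renal carcinoma, had MAX rank 5824 and MYC rank 7. A MAX peak within the predicted gene Gm52481 on chromosome Y, at chrY:90744450-90744915, had MAX rank 9153 and MYC rank 3. Another, at chr11:109011649-109012088 centred 91520 bp from the start of Axin2, had ranks 10131 and 24. Usp5 and Cdca3 share a peak with MAX rank 10213 and MYC rank 28, and Alyref2 had MAX rank 5965 and MYC rank 256. All 5 also had a MYC peak in untreated cells.

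**Figure D2:**
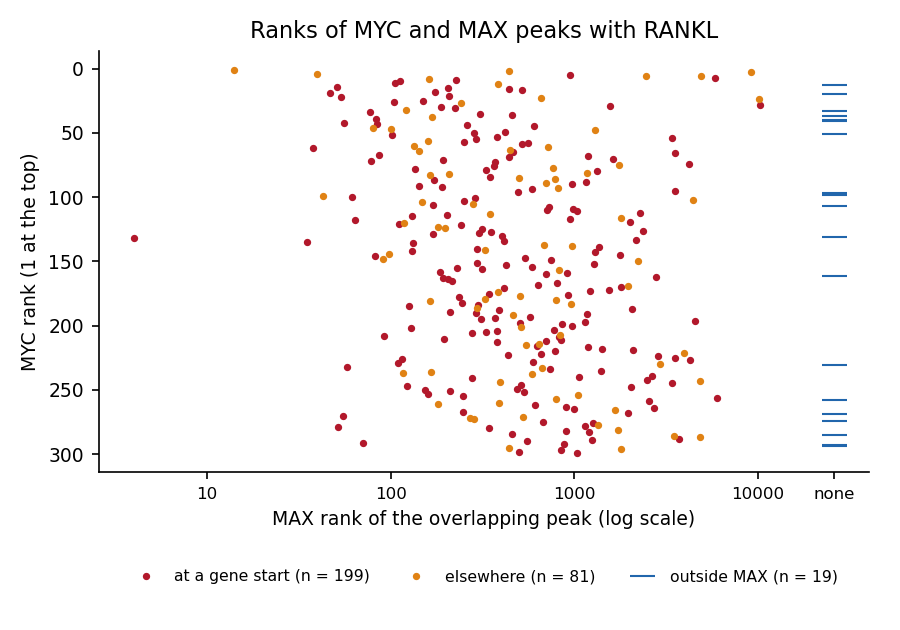
MYC rank (y axis, 1 at the top) against the rank of the overlapping MAX peak (x axis, log scale) in RANKL-treated cells; red points lie at a protein-coding gene start, orange points elsewhere, and blue dashes mark the 19 MYC peaks outside MAX. Most points lie between MAX ranks 26 and 1089, and points of high and low MYC rank occur over that whole range.

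Within the shared sites, MYC peaks were narrower than MAX peaks and lay close to their middle. Each of the 280 MAX peaks with MYC was set against the MYC peak that shared most bases with it. In 272 of them that MYC peak lay wholly within the MAX peak. Centres were a median of 73 bp apart, and 175 (62.5%) were within 100 bp. A single MYC peak of 5865 bp, at MYC rank 6 on chromosome 17 at the ribosomal DNA-like Rn18s-rs5, covered MAX peaks of rank 2439 and rank 4880.

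MAX peaks with MYC and their rank-matched partners lay mostly at gene starts, and the difference between them was within counting error. A peak was placed at a gene start when it lay within 1 kb of the start of a protein-coding gene. This held for 199 of 280 peaks with MYC (71.1%, 65.4 to 76.3%), for 187 of 280 matched peaks (66.8%, 60.9 to 72.3%) and for 53.0% of all MAX peaks without MYC. The difference between peaks with MYC and matched peaks was 4.29 percentage points (95% interval -3.62 to 12.1), which includes 0. Inside genes but away from starts lay 40 peaks with MYC and 50 matched peaks, and between genes lay 41 and 43. Starts of long non-coding RNAs were reached by 30 peaks of each set, and 56 peaks with MYC, against 58 matched peaks, had their centre over 10 kb from a protein-coding gene start. When partners were matched on width as well as rank, 71.1% of peaks with MYC lay at gene starts, against 77.9% of the partners, so the direction depends on the matching.

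Shared promoters and snoRNA host genes were counted separately. At the starts of 2 or more protein-coding genes lay 43 peaks with MYC (15.4%, 11.3 to 20.1%), 26 matched peaks (9.29%, 6.16 to 13.3%) and 7.65% of all without MYC. The intervals of peaks with MYC and matched peaks overlap. No interval of the difference was calculated, and overlap alone does not show that it includes 0. Examples with MYC are the Nsun2 and Srd5a1 pair, Ears2 with Ubfd1, and Hspd1 with Hspe1, the mitochondrial chaperonin pair. Host genes carry snoRNAs, guides of rRNA modification, in their introns. Their starts were reached by 26 peaks with MYC (9.29%, 6.16 to 13.3%), by 9 matched peaks (3.21%, 1.48 to 6.01%) and by 1.60% of all MAX peaks without MYC. Of 174 protein-coding host genes with a MAX peak, 25 had MYC (14.4%), against 3.92% of all protein-coding genes with MAX. MYC rates at the same MAX ranks would give 12.5 of them. They include Rabggtb, Gnl3, Odc1, Sf3b3, Ncl, Nop58, Rpl32, Eif4a2 and Rack1. Non-coding hosts with MYC were Snhg17 (MAX rank 164, MYC rank 83), Snhg15 (441 and 2) and 2410006H16Rik (681 and 137).

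**Figure D3:**
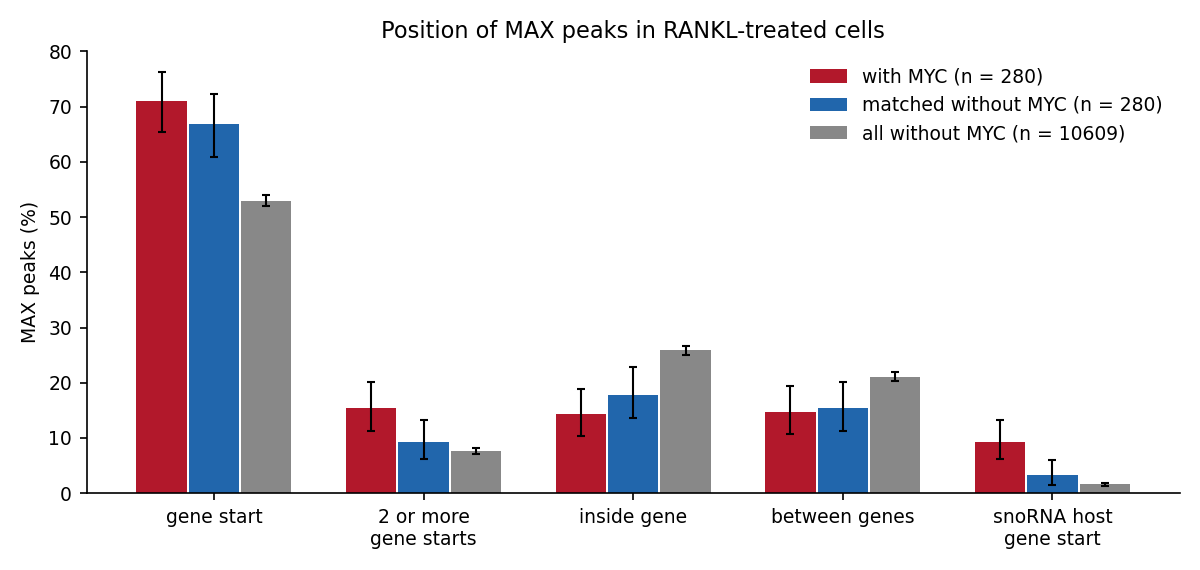
Share of MAX peaks (y axis, percent) in each kind of position, for peaks with MYC, rank-matched peaks without MYC and all peaks without MYC; lines are exact 95% intervals and a peak can count in more than 1 kind. Gene starts take 71.1%, 66.8% and 53.0% in that order, and snoRNA host starts 9.29%, 3.21% and 1.60%.

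On the strand of the gene, the centres of MAX peaks with MYC lay about evenly on both sides of the transcription start. Over the 163 peaks with MYC that have a listed start, the median centre lay 1 bp before it (offset -1.0 bp, 95% interval -36.5 to 33.5). For 158 matched peaks the median offset was -54.5 bp (-75.0 to -18.5), that is, upstream of the start. Downstream of the start lay 49.1% of centres with MYC and 36.7% of matched centres. All 4540 peaks without MYC that have a listed start had a median offset of -10.75 bp. Without regard to direction, the median distance from the start was 124.0 bp with MYC and 101.5 bp for matched peaks. It was 104.5 bp for all without MYC, so peaks with MYC were not closer to the start.

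MAX peaks with MYC were wider at the same rank. Their median width was 808 bp (95% interval 741 to 839), against 614.5 bp (582 to 650) for matched peaks and 477 bp for all MAX peaks without MYC. The difference from matched peaks was 193.5 bp (118 to 238), and the peak with MYC was the wider one in 188 of 280 pairs (67.1%). Over 1000 bp wide were 80 peaks with MYC (28.6%) and 26 matched peaks (9.29%). The gap was present at gene starts, with medians of 827 bp for 199 peaks with MYC and 664 bp for 187 matched peaks. Away from gene starts the medians were 690 bp for 81 peaks with MYC and 504 bp for 93 matched peaks. A wide peak offers more bases to overlap. With a reciprocal overlap of 50%, which needs MYC and MAX peaks of similar width, 80 peaks with MYC had a median of 606.5 bp and their matched peaks 642.0 bp.

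**Figure D4:**
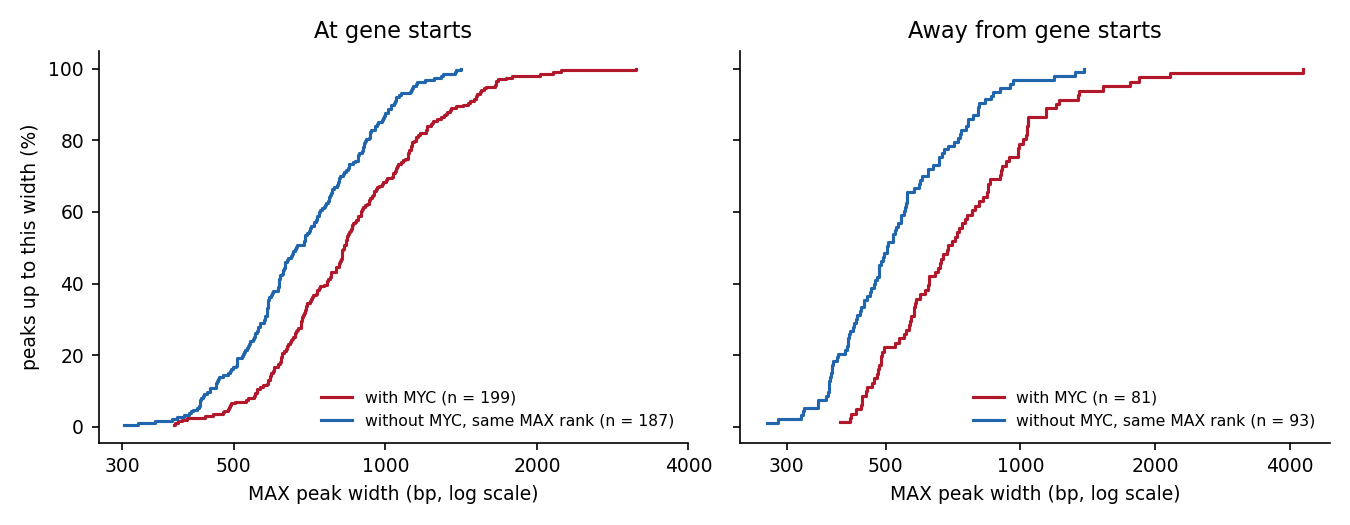
Cumulative share of MAX peaks (y axis, percent) by peak width (x axis, bp, log scale) for peaks with MYC and rank-matched peaks without MYC, at gene starts (left) and away from them (right). The curve of peaks with MYC runs to the right of the matched curve in both panels, with medians of 827 and 664 bp at gene starts and 690 and 504 bp away from them.

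The widest MAX peaks with MYC were spread over functions. The one of 4279 bp at Rn18s-rs5 (chr17:39842964-39847242) lies in ribosomal DNA-like sequence, which is repeated in the genome. It was followed by Hmga1, an architectural chromatin protein, with 3146 bp, and by the peak of 2230 bp shared by Brd2, a BET protein, and H2-DMa, an antigen-loading factor. Tfap4, a helix-loop-helix factor, had 2149 bp, Klf16, a zinc-finger factor, 2029 bp, and Npm1, the nucleolar chaperone nucleophosmin, 1781 bp. Matched peaks reached at most 1415 bp, at Srm, the spermidine synthase.

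Sites with MYC after RANKL were often MYC sites without treatment too. A MYC peak in untreated cells overlapped 141 of the 280 MAX peaks with MYC (50.4%, 44.3 to 56.4%) and 27 of the 280 matched peaks (9.64%, 6.45 to 13.7%), where 2.64% of all RANKL MAX peaks had one. The difference was 40.7 percentage points (33.5 to 47.5). With I-BET alone, a MYC peak overlapped 18 peaks with MYC and 1 matched peak, against 0.211% of all MAX peaks. With RANKL and I-BET together, 10 peaks with MYC were overlapped, among them those at Ncl, Snhg17 and Snhg15, and 0 matched peaks (95% interval up to 1.31%), against 0.101% of all. That list holds 11 peaks in all, and part of the I-BET list of MYC is made of short peaks, 105 of 136 being under 100 bp.

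MAX itself was listed at nearly all of these places in every treatment. MAX peaks of untreated cells overlapped 276 of the peaks with MYC and 266 matched peaks, against 66.0% of all RANKL MAX peaks. The I-BET list of MAX, the largest with 36785 peaks, overlapped all 280 of each set, against 96.9% of all. The list with both agents overlapped 272 and 262, against 51.2% of all. All 4 MAX lists together covered 269 peaks with MYC (96.1%, 93.1 to 98.0%) and 257 matched peaks (91.8%, 87.9 to 94.7%). Of all MAX peaks without MYC they covered 43.5%.

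The MAX peaks without MYC after RANKL but with MYC in untreated cells numbered 147. The best-ranked of these lay at Ptprs, a receptor phosphatase (MAX rank 8), Vars, valyl-tRNA synthetase (41), Rpp38, a subunit of RNase P (85), and Apex1, a DNA repair endonuclease, with Osgep (93). Srm (128), Cdk7, a kinase of the transcription and cell cycle machinery (291), Eif5a (369) and Ccnd1, cyclin D1 (375), were of this kind as well. Most of these genes were picked out after their values were seen. Since each list has its own threshold, absence from the RANKL list shows that no MYC peak was called there, not that MYC was absent.

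By gene function, MAX peaks with MYC reached 242 protein-coding gene starts and matched peaks reached 212, with 2 genes in both. Any MAX peak was at the start of 6181 of 21887 protein-coding genes (28.2%), and 3.92% of those 6181 had MYC. Of 25 gene lists for functions and cell types, some list took in 72 of the 242 genes with MYC (29.8%), 29 of the 212 matched genes (13.7%) and 10.5% of all genes with MAX. The lists were written with earlier results of these data known, and many hold functions that MYC is known to drive. These totals therefore depend on the choice of lists and are a description only. The number of MYC genes that each list would have if its members had MYC as often as all MAX-bound genes in the same of 20 strata of MAX rank is given below as the number from rank strata.

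Ribosome biogenesis factors, which make and process rRNA in the nucleolus, held the most genes with MYC. Of 73 with a MAX peak, 19 had MYC (26.0%, 16.5 to 37.6%), the number from rank strata was 7.26, and 7 lay at matched peaks. With MYC were Nol8 (MAX rank 112, MYC rank 10), Gnl3 or nucleostemin (130 and 115), the helicase Ddx18 (154 and 250) and Gar1, a core protein of H/ACA snoRNPs (160 and 253). Nolc1, which binds snoRNPs, had ranks 186 and 158, and Ncl or nucleolin 208 and 21. Nop58, a core protein of box C/D snoRNPs, had ranks 226 and 9, and Npm1 349 and 84. Without MYC at comparable MAX ranks were Pes1, a factor of large-subunit maturation (50), Mrto4 (148), Nop2 (286) and Utp20, a factor of small-subunit processing (429). As a share of genes, the list made up 7.85% of genes with MYC and 3.30% of matched genes, a difference of 4.55 points (-0.0108 to 9.13).

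Cytosolic ribosomal protein genes had MYC at 11 of 73 starts with MAX (15.1%, 7.77 to 25.4%), with 4.80 from rank strata and 2 at matched peaks. Among them were Rpl10a (MAX rank 250), Rpl32 (516), Rpl5 (518), Rps3a1 (854) and others down to Rpl7a (4546). Rps27a (15), Rpl21 (25), Rps12 (67) and Rpl35a (116) had stronger MAX peaks and no MYC. The share of genes was 3.60 points higher with MYC than at matched peaks (0.292 to 7.14). With matching among MAX peaks at gene starts only, 3 genes of the list lay at matched peaks. Ribosomal protein genes have many processed copies, and how reads on such copies were handled is not given in the sources used here.

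Translation factors had MYC at 5 of 42 starts, with 2.20 from rank strata and 2 at matched peaks. The helicases Eif4a2 (MAX rank 285) and Eif4a1 (602) and the scaffold Eif4g1 (412) of the cap-binding eIF4F complex were among them, while its cap-binding subunit Eif4e (2196) had no MYC peak. Also with MYC were Eef1e1 (1057) and Eif1ad (1556). Eif2s3x (144), Eif5a (369), Eif3b (601) and Eif3a (911) had MAX and no MYC peak. Aminoacyl-tRNA synthetases, which charge tRNAs, had MYC at 2 of 29, Ears2 (62) and Yars (313), with 2.29 from rank strata and 2 at matched peaks. Farsb (12), Vars (41), Fars2 (221) and Wars2 (394) had none.

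Splicing and RNA-binding genes had MYC at 8 of 50 starts (16.0%, 7.17 to 29.1%), with 2.76 from rank strata and 1 at matched peaks. Pcbp1 (MAX rank 47, MYC rank 19), Sf3b3, a part of the U2 particle (132), Hnrnpu (216), Ptbp1 (417), Hnrnpr (574) and Hnrnpf (917) led them. The share of genes was 2.83 points higher with MYC than at matched peaks (0.00232 to 5.97), a lower bound close to 0. With matching among MAX peaks at gene starts only, 2 genes of the list lay at matched peaks. Eftud2 (10), Hnrnpl (446), Srsf3 (695) and Prpf3 (1217) had MAX only. The intervals of the list differences are not adjusted over the 25 lists, and apart from cytosolic ribosomal proteins and splicing they all include 0.

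Metabolic lists held MYC at 1 to 7 genes each. Enzymes that make nucleotides, one-carbon units and polyamines had MYC at 5 of 36, with 2.89 from rank strata and 2 at matched peaks. With matching among MAX peaks at gene starts only, 4 genes of the list lay at matched peaks. With MYC were Odc1, the first enzyme of polyamine synthesis (126), Mat2a (210), Nme1 (294), Ctps, CTP synthase (440), and Nme2 (777). Srm (128), Shmt1 (426), Impdh2 (511), Atic (581) and Cad (1081), the enzyme that starts pyrimidine synthesis, had MAX and no MYC. Mitochondrial biogenesis and import had 7 of 39, with 3.32 from rank strata and 1 at matched peaks, among them Pprc1 (51), Timm9 (64), Mtg1 (205), Mrpl23 (296) and the pair Hspd1 and Hspe1, which share a peak (311). Glycolysis and lactate transport had 3 of 22, namely Ldha (131), Hk2, which phosphorylates glucose (171), and Pkm, pyruvate kinase (1264), with 1.24 from rank strata and 0 at matched peaks. The lactate carrier Slc16a1 (265) and Pfkp (1124) had none. Respiratory chain subunits had 1 of 23, Cox5a (106), with 0.820 from rank strata.

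Growth machinery outside the ribosome varied. Chaperones had MYC at 4 of 25 starts, Dnajc2 (211), Cct8 (1413), Cct7 (2631) and Hspa8 (3389), with 0.779 from rank strata and 1 at matched peaks. Dnajc2 shares its peak with the proteasome gene Psmc2, the only member with MYC among the 20 listed proteasome subunits that had MAX. Psmd1 (61) and Psmd12 (146) had none. Nuclear pore and transport genes had 2 of 33, Ran (71) and Kpnb1, importin beta (300), with 2.56 from rank strata. Nup205 (87), Ranbp1 (263) and Nup188 (450) had no MYC. These counts hold for list members only: Psme3 (189) and Xpot (288), which had MYC, are in neither the proteasome nor the nuclear transport list. Cell cycle and DNA replication genes had 1 of 33, E2f3 (1399), with 1.29 from rank strata, and Ccne2 (73), Cdk4 (264), Ccnd1 (375) and Mcm7 (686) had none.

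**Figure D5:**
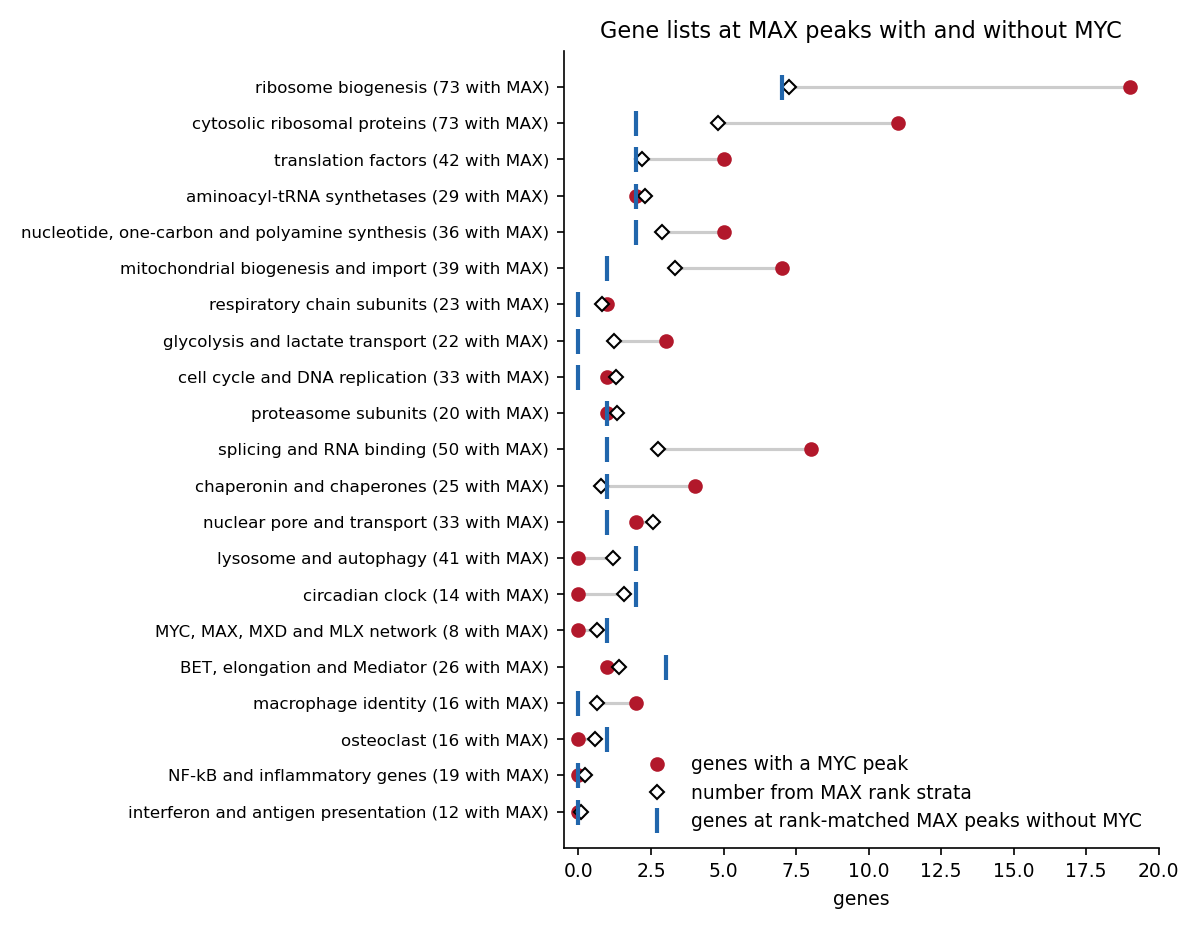
Genes of each list (y axis, with the number that have a MAX peak at the start) that have a MYC peak (red), the number from MAX rank strata (open diamonds) and the genes at rank-matched MAX peaks without MYC (blue); the x axis counts genes. Ribosome biogenesis stands farthest right with 19 genes, against 7.26 from rank strata and 7 at matched peaks, and 6 of the lists drawn have 0 with MYC.

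Several lists with MAX peaks had no MYC. Lysosome and autophagy genes had MYC at 0 of 41 (exact 95% upper bound 8.60%), with 1.203 from rank strata; Lamp1 (178), Atp6v0b (894), Hexa (1130) and Ctsc (1199) had the best MAX ranks. Circadian clock genes had 0 of 14 (upper bound 23.2%), with 1.56 from rank strata, although Ciart (224), Nr1d1 (282), Tef (383) and Nr1d2 (484) had strong MAX peaks. Genes of the MYC, MAX, MXD and MLX network had 0 of 8 (upper bound 36.9%), with 0.625 from rank strata and MAX at Max itself (503), Mlxip (633), Mga (1163), Mnt (1410) and Mxi1 (1428). No MAX peak was placed at the starts of Myc or Mlx. At these counts an absence of MYC from the lists cannot be told from a rate near that of the rank strata.

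In the osteoclast and macrophage lists, the genes with MYC were Cebpa and Spi1. The osteoclast list had MYC at 0 of 16 starts (upper bound 20.6%), with 0.565 from rank strata and 1 at matched peaks, so the 0 is near what MAX rank alone gives. There the AP-1 members Junb (176) and Fosl2 (1191), the signalling adaptor Tyrobp (1240) and Mitf (3185) had the best MAX ranks. Nfatc1, the main regulator of osteoclast formation, and Prdm1, which represses inhibitors of osteoclast formation, had no MAX peak at the start. The macrophage list had 2 of 16, the myeloid regulators Cebpa (MAX rank 533, MYC rank 252) and Spi1 (740 and 234), with 0.628 from rank strata, while Klf4 (472) and Irf8 (9487) had MAX only. NF-kB and inflammatory genes, with MAX led by Nfkbiz (1125) and Rel (1501), had MYC at 0 of 19, with 0.230 from rank strata. Interferon and antigen presentation genes, led by Irf9 (2023), had 0 of 12, with 0.0841 from rank strata. Among BET, elongation and Mediator genes 1 of 26 had MYC, with 1.39 from rank strata and 3 at matched peaks. It was Brd2, at a second MAX peak of rank 1801 (MYC rank 170) and not at its best one of rank 853. Cdc73 (42), Mepce (76) and Cdk7 (291) had none.

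Lists that stand for other cell types had almost no MAX. A MAX peak was at the start of 1 of 31 neuronal genes, 1 of 31 hepatocyte genes, 0 of 19 lymphocyte genes and 0 of 20 fibroblast and osteoblast genes, against 28.2% of all protein-coding genes, and at 16 of 41 macrophage genes.

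At gene starts, promoter sequence was read in windows of 300 bases, from 250 before to 50 after the start. Windows were available for 162 gene starts with MYC, and each was matched on rank to the window at a MAX peak without MYC. A gene can have a MAX peak of either kind at its start, as Anp32b does. The E-box CACGTG, which reads the same on both strands, was in 51 of 162 windows with MYC (31.5%, 24.4 to 39.2%) and in 56 of 162 matched windows (34.6%, 27.3 to 42.4%). It was in 16.6% of all 4151 windows with MAX and no MYC, and in 7.84% of all 21263 promoters. The difference between windows with MYC and matched windows was -3.09 percentage points (-13.7 to 7.55), which includes 0. Thus Pcbp1 and Ldha with MYC, and Nop2 and Atp5l without it, carry the same 6 letters in capitals above.

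Other motifs had overlapping intervals between the sets, with the largest difference at the CCAAT box. No intervals of these differences were calculated, and overlap alone does not place a difference within counting error. The variant E-box CACGCG, searched on both strands, was in 42.6% of windows with MYC and 40.7% of matched windows, against 12.1% of all promoters. The ETS core CCGGAA was in 34.6% and 35.8%, against 18.7% of all. The cyclic AMP response element TGACGTCA was in 4.32% of each set, against 2.23% of all. The CCAAT box was in 24.1% of windows with MYC (17.7 to 31.4%) and in 35.2% of matched windows (27.9 to 43.1%), against 38.2% of all promoters. Median GC content was 63.7% with MYC and 64.8% in matched windows.

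The E-box share depended on the MAX rank. At ranks 26 to 200, where MYC was most frequent, 20 of 39 windows with MYC had CACGTG (51.3%, 34.8 to 67.6%) and 17 of 78 windows with MAX alone (21.8%, 13.2 to 32.6%). At ranks 201 to 500 the order was the other way, with 15 of 44 (34.1%, 20.5 to 49.9%) with MYC and 50 of 111 (45.0%, 35.6 to 54.8%) without. At ranks 501 to 1089 the shares were 27.8% with MYC and 38.1% without, and at ranks 1090 to 5445 they were 15.0% and 20.1%. These rank bounds were chosen after the values were seen. E-boxes lay a median of 105 bp from the centre of the MAX peak with MYC, and 77.25 bp from that of the matched peak. Among ribosome biogenesis genes the E-box was in 2 of 17 windows with MYC and in 10 of 47 with MAX alone, and among cytosolic ribosomal protein genes in 2 of 8 with MYC and in 4 of 45 with MAX alone, all with overlapping intervals. A match shows these letters in the window, and no match says nothing of a factor's binding.

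MYC peaks outside MAX numbered 19, and 6 of them were within the first 50 MYC ranks. Their median width was 390 bp, against 304.5 bp for MYC peaks on MAX, and their median MYC rank was 107, against 151.5. Only 1 lay at a protein-coding gene start, that of Nudt13 (chr14:20294485-20294797, MYC rank 41), a gene of the Nudix hydrolase family. On MAX, 68.9% of MYC peaks lay at such a start. From the nearest RANKL MAX peak, 17 of the 19 were over 10 kb away, with a median gap of 192851 bp.

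In all, 8 of the 19 lay inside a gene. The best was inside Zc3h7a (chr16:11143913-11144310, MYC rank 13). The next, at chr16:57391351-57391738 (rank 20), lay inside Cmss1 and Filip1l, 969 bp from a MAX peak. Peaks inside Peak1 (chr9:56223588-56224011, rank 37), Cdk8 (chr5:146260929-146261318, rank 40) and Mid1-ps1 (chrY:90761443-90761747, rank 51) followed. The remaining ones inside genes were at Nudt13, at Gm34259 (chr17:4626169-4626580, rank 107) and at D130009I18Rik (chr14:104715769-104716061, rank 131).

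The other 11 lay in no annotated gene. They were at chr4:88641079-88641350 (rank 33), chrY:90829032-90829232 (rank 97), chr6:3200891-3201621 (rank 98), chr3:5860375-5860845 (rank 161) and chr17:36231369-36231599 (rank 285). A further 6 came as pairs of close neighbours. On chromosome 9 they were chr9:3000138-3000568 (rank 231) and chr9:3001165-3001484 (rank 274). On chromosome 2 they were chr2:98662262-98662889 (rank 294) and chr2:98666695-98667208 (rank 258). On chromosome 14 they were chr14:19415715-19416141 (rank 269) and chr14:19419195-19419579 (rank 293). These 6 were in no other list of the series.

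The 19 peaks outside MAX had a MYC peak with I-BET more often than those on MAX, while the shares in untreated cells were closer. No intervals of these differences were calculated. Of the 19, 8 had a MYC peak with I-BET (42.1%), against 6.07% of the 280 MYC peaks on MAX, and 8 had one in untreated cells (42.1%), against 49.6%. MAX peaks of untreated cells overlapped 6 of them, the I-BET list of MAX overlapped 12, and the list with both agents 0. The peaks in Zc3h7a, Cmss1, Peak1, Cdk8 and Mid1-ps1 and the one at chr6:3200891 were in the untreated and I-BET lists of both MYC and MAX. No MAX list held 7 of the 19. Whether these places also have a high input signal was not tested.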

How the data were processed

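Per the submitters' processing notes, the tools were MACS2 2.1.1.20160309, Bowtie2 2.3.4.1 and FastQC, with the build mm10 (GRCm38), and per the labels' protocols chromatin was fixed with 1% formaldehyde and the single-end reads were 50 bp long. The deposited score of each peak is the authors' own value, given in BED lists in which each peak joins calls from 3 call sets whose nature is not given in the sources used here; read depth is not given either. How input entered the calling is also not given.

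The score was used only to rank peaks within a list, with ties broken by position. Coordinates were converted to count from 1. Overlap meant at least 1 bp. Each MAX peak with MYC, best rank first, took the unused MAX peak without MYC nearest in rank. Gene starts were RefSeq starts (GRCm38.p6) for 17492 of 21887 protein-coding genes, and both annotated ends for the rest, within 1 kb. Shares carry exact Clopper-Pearson 95% intervals, differences of shares and of medians combine the intervals of both sets, and medians carry order-statistic intervals. All of these cover counting error only.

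Of 1011 list entries 1010 matched. The members, gene lists and comparisons were chosen with earlier results of these data known. The rule for named genes takes the 15 best MAX ranks at gene starts in each set, the 10 best MYC peaks at gene starts, every MYC peak outside MAX, up to 6 members with MYC and 4 without in each list, and 20 regulators. Other genes named were chosen after their values were seen, among them the widest peaks, the MAX peaks with MYC in untreated cells only and the snoRNA hosts. Some genes that the rule takes are not reported here. Alternatives covered the overlap, score, width, matching, window and gene starts. The code was tested on simulated peaks and against bedtools 2.31.1, under Python 3.11.15, using scipy 1.17.1, pandas 2.3.3, numpy 2.4.6 and, for figures, matplotlib 3.10.9.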

Additional observations from a re-analysis of the deposited data

How the results depend on the processing

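With a reciprocal overlap of at least 50%, the share with MYC among the 1089 best MAX peaks was 5.51%, the gene start difference between peaks with MYC and matched peaks was -5.0 points, the width difference was -35.5 bp and 219 of 299 MYC peaks counted as outside MAX. This follows in part from the rule, since MYC peaks are narrower than the MAX peaks that hold them. With only the 149 best-scoring MYC peaks, that share was 10.3% and 11 of 149 MYC peaks were outside MAX. Without matching, the differences were 18.1 points at gene starts, 331 bp in width, 49.0 points for MYC in untreated cells and 14.9 points for the E-box, against -3.09 points with matching. Matching on rank and width, added after the data were seen, gave -6.79 points at gene starts and 0.0 points for the E-box and for MAX in untreated cells. Leaving out peaks under 100 bp removed none from either RANKL list, so it could not change a result. The other alternatives were not run for every result. Gene start and width differences were rerun by score, 20 rank strata, 3 to 1 matching and MAX peaks without MYC in any treatment. Other windows and gene starts were tried for the gene start difference, and MAX peaks at gene starts only for width. Untreated MYC was rerun with 20 rank strata and 3 to 1 matching, and the E-box with 3 to 1 matching only. In these runs the differences kept their direction and stayed within their intervals. The single lists, unknown thresholds, unknown read depth and unused input limit every absence of a peak. Replicates could not be paired because each antibody and treatment has 1 list. The rank-matched pairs were used as pairs only to count which peak was wider. The intervals of differences treat the matched sets as independent.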

Other observations

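By chromosome, chosen after the values were seen, chromosome 11 held 39 MAX peaks with MYC and 27 matched peaks, and 4.13% of its 945 MAX peaks had MYC, where the whole list had 2.57%. Chromosome 15 held 2 peaks with MYC and 16 matched peaks, and 0.460% of its 435 MAX peaks had MYC. Among MAX peaks with MYC that lie away from gene starts, 4 are given as examples. A MAX peak in Tlr2, a receptor of bacterial lipoproteins (MAX rank 281, MYC rank 105), was one, and a MAX peak in Cx3cr1, the fractalkine receptor (4412 and 102), was another. Peaks inside Lipa, the lysosomal acid lipase (166 and 236), and Pdgfb, a growth factor (3505 and 286), were others. They were picked after the peaks were seen, and no theme was counted or compared with matched peaks.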
